A study of Mus musculus with 94 samples.

Results

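The epididymal white fat (eWAT) of 6 mice 2 weeks into obesity regression was compared with that of 6 lean mice of the same age. The study gave male C57BL/6JBomTac mice the high-fat diet D12492 from 10 weeks of age to make them obese and then returned them to the low-fat diet D12450J, and sequenced poly(A) RNA of their fat. The regression mice described here had 18 weeks of high-fat diet and then 2 weeks of low-fat diet, and the lean mice had the low-fat diet throughout, so that both groups were eating the same food when the tissue was taken. The 12 libraries were chosen by the titles that name the short-term regression and lean groups, and are 12 of the 47 eWAT libraries and of the 94 libraries of the series. The other 2 comparisons used as a frame were these: 5 obese mice, after 18 weeks of high-fat diet, against 6 lean mice of that time, and 6 mice after 6 weeks of regression against 6 lean mice of that time. No library is shared between these comparisons. All mice were male, and cage-mates were housed 3 to an enclosure unless they fought. The sources used here do not give which mice shared a cage, so the p-values take the mice as independent. They rest on a spread between mice that was estimated over all 47 eWAT libraries.

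White adipocytes store triglyceride that they take up from lipoproteins or build from glucose, and de novo lipogenesis, the building of fatty acids from acetyl-CoA, is switched on by insulin and carbohydrate through the transcription factors ChREBP and SREBP-1. In obesity the epididymal depot of male mice is known to gain macrophages, many of them gathered around dying adipocytes, and these take up lipid and express a lysosomal and lipid-handling programme. Leptin, the hormone by which fat reports its stores to the brain, follows adipocyte size and energy intake.

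Library totals ran from 1318944 to 12158021 counts in regression mice, against 8608622 to 17789456 counts in lean mice. The groups differed in depth (two-sided exact permutation test of the mean, p = 0.0325, n = 6 each, where the smallest p this design allows is 0.00216). Regression replicate 2 was the smallest library and showed a count for 12778 genes, against 15284 to 16082 in the other 11 libraries. Lean replicate 2 held 97.4% of the summed level of an epididymis marker list, so genes of the sperm duct are not described here. The labelled tissue was checked against its markers: all 9 adipocyte markers were measured, at a summed 11404 to 29196 CPM (counts scaled to one common library total, with edgeR's TMM library sizes) in regression mice, against 17925 to 28367 CPM in lean mice. Of these 9 markers 5 were lower in regression mice and none was higher by the test given next. The 7 mesothelial markers, from the cell layer that covers visceral fat, summed to 255 to 496 CPM in regression mice and to 285 to 493 CPM in lean mice. Haemoglobin genes were under the filter on low counts. The mouse numbers fall into separate runs, with replicates 1 to 3 of every group in one and replicates 4 to 6 in another, and the counts of the main lists are also given within each run. In whole tissue, fewer cells of a type and less RNA of a gene per cell cannot be told apart.

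**Figure D1:**
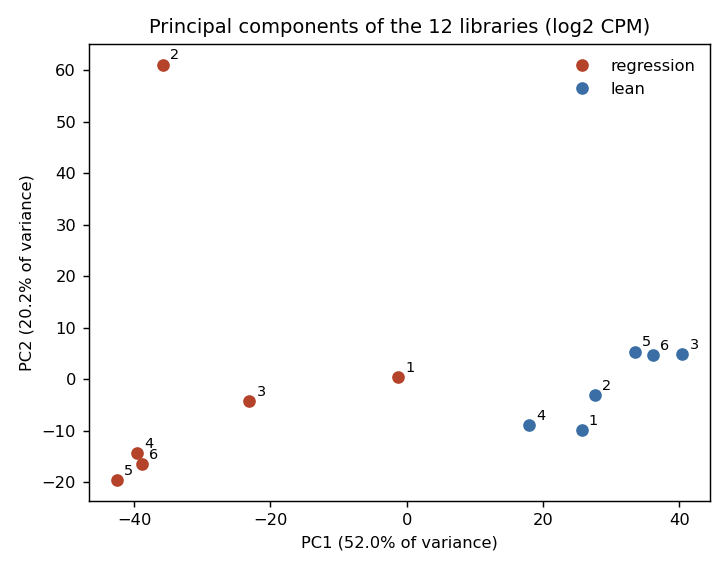
Principal components of log2 CPM over the 12 libraries, with the first component (52.0% of the variance) on the horizontal axis and the second (20.2%) on the vertical axis, red points for regression mice and blue points for lean mice, each with its replicate number. Regression mice sit between -42.5 and -1.26 on the first component, against 17.9 to 40.4 in lean mice, with regression replicate 1 nearest to the lean mice and regression replicate 2, the shallow library, alone at 61.0 on the second.

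Of 14323 genes tested in one edgeR quasi-likelihood model of all 47 eWAT libraries, 5111 (35.7%) passed a Benjamini-Hochberg adjusted p under 0.05, 2661 (18.6%) higher and 2450 (17.1%) lower in regression mice. Of these, 920 were higher and 382 lower by more than 1 on the log2 scale. The median log2 fold change over all genes tested was 0.02. In 1001 genes (6.99%) every regression mouse was above every lean mouse, and in 809 genes (5.65%) every regression mouse was below. Each library was left out in turn, and 3612 genes were called in the same direction in all 12 of these fits. Without regression replicate 2 the count of 5111 became 5145 (35.9%), with 2921 higher (20.4%) and 2224 lower (15.5%). Of these 5145 genes, 4505 were among the 5111, in the same direction. Among replicates 1 to 3 alone, with 3 mice a group, 605 of 13057 genes were called (4.63%), 2.77% higher and 1.86% lower. Among replicates 4 to 6 alone 4234 of 13634 were called (31.1%), 17.4% higher and 13.6% lower. These shares are the reference for the counts given by run below. A table of the authors' own comparison at this time, made with DESeq2, called 5328 genes; 4939 of them were called here in the same direction, which is 92.7% of the authors' calls and 96.6% of the calls here, and none in the opposite direction.

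**Figure D2:**
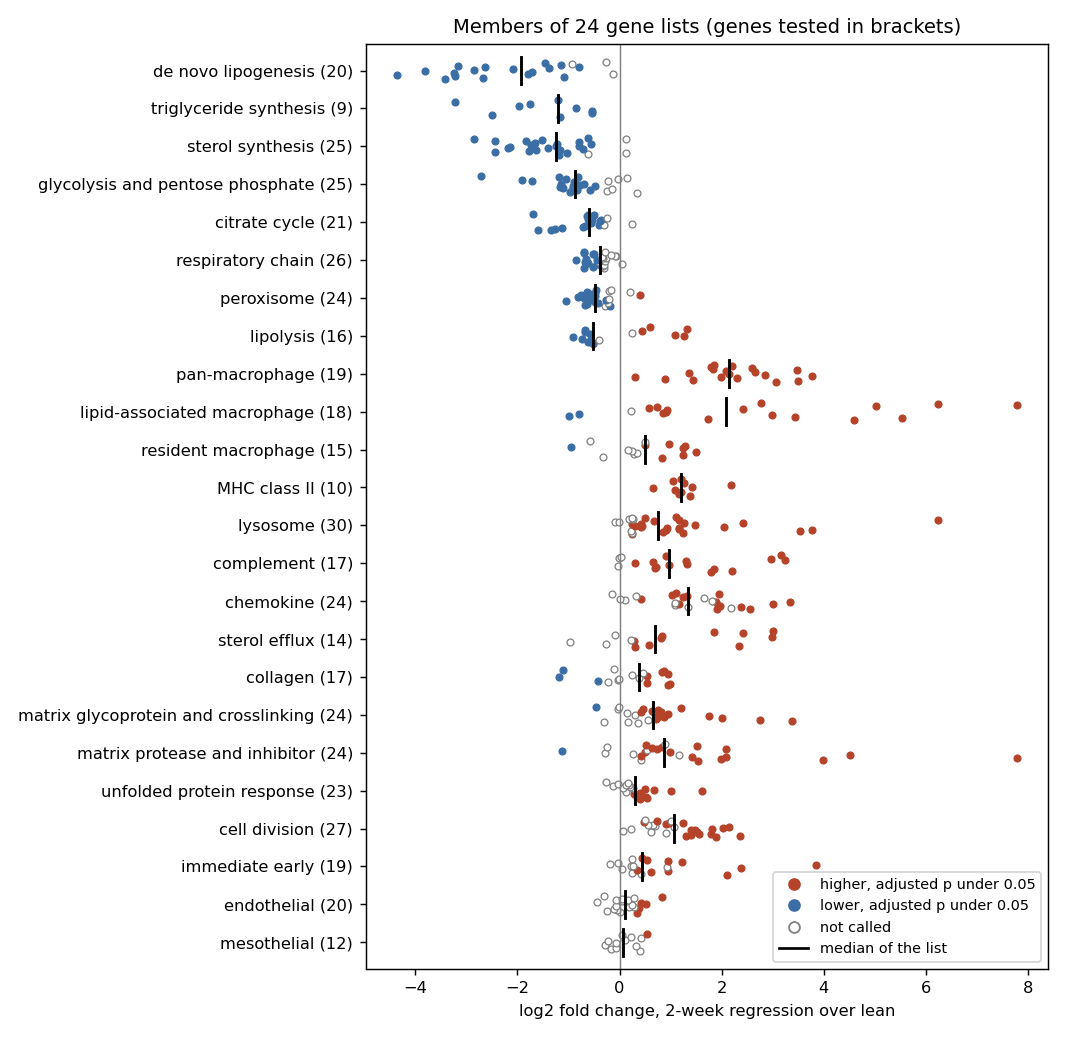
The log2 fold change of regression over lean mice (horizontal axis) for each tested member of 24 gene lists (rows), with filled points for members called at an adjusted p under 0.05, red where higher and blue where lower, open points for the others, and a black bar at the list's median. Every point of the sterol synthesis and de novo lipogenesis rows that passed the test lies left of 0, and every such point of the pan-macrophage row lies right of 0.

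The fat-making enzymes were far lower in regression mice. Of 20 genes of de novo lipogenesis tested, 17 fell and 0 rose, where 17.1% of all genes tested were lower. The list's median log2 fold change was -1.94 against 0.02 over all genes, and in 15 members the groups did not overlap, where 5.65% of all genes were lower without overlap. Elovl6, which lengthens palmitate to stearate (chr3:129532355-129638495, plus strand, in the mm10 gene set), had a lowest, median and highest level of 22.3, 47.8 and 77.5 CPM in regression mice, against 287, 1238 and 1441 CPM in lean mice. The highest regression mouse was below the lowest lean mouse, and the fold change was -4.37 ± 0.57 on the log2 scale (± SE; adjusted p = 9.9e-07). Fasn, the synthase that assembles palmitate (chr11:120805846-120824547, minus strand), stood at 5177, 1940.0, 4609, 1090.3, 746 and 518 CPM in regression replicates 1 to 6, against 22564, 12795, 30158, 19896, 21613 and 25437 CPM in lean replicates 1 to 6. All 6 regression mice were below all 6 lean mice, and replicates 4 to 6 of the regression group were the lowest of all; the fold change was -3.23 ± 0.51 (adjusted p = 1.07e-05).

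The enzymes that supply acetyl-CoA to this pathway moved with it. Acly, which cleaves citrate into cytosolic acetyl-CoA, was at 124, 161 and 308 CPM in regression mice, against 832, 2158 and 3087 CPM in lean mice (-3.42 ± 0.49, adjusted p = 3.19e-06). Acss2, which makes acetyl-CoA from acetate, was at 22.6, 35.7 and 77.4 CPM in regression mice, against 420.1, 568 and 937 CPM in lean mice (-3.81 ± 0.50, adjusted p = 1.06e-06). The groups overlapped in neither. The desaturase Scd2, which makes monounsaturated fatty acids, fell by 3.25 ± 0.41 (adjusted p = 7.79e-07), with a median of 288 CPM in regression mice, against 2513 CPM in lean mice. Its relative Scd1, one of the most abundant messages of the tissue, ranged over 14424 to 78687 CPM in regression mice, against 102073 to 166778 CPM in lean mice, and fell by 1.79 ± 0.37 (adjusted p = 0.000202). Scd1 and Scd2 are similar in sequence, and the sources used here do not say how reads that fit both were counted.

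Both transcription factors of the pathway were lower as messages, with fold changes nearer to 0 than those of Fasn and Elovl6. Mlxipl, which encodes ChREBP, was at 54.4 to 125 CPM in regression mice, against 148 to 291 CPM in lean mice, with no overlap, and fell by 1.384 ± 0.25 (adjusted p = 4.99e-05). Srebf1, which encodes SREBP-1, was at 238, 353 and 742 CPM in regression mice, against 643, 745 and 915 CPM in lean mice, with overlapping groups (-0.80 ± 0.26, adjusted p = 0.0144); its call was lost without regression replicate 4 (-0.67) and without regression replicate 6 (-0.65). Pnpla3, a lipid droplet protein that both factors are known to induce, had a median of 112 CPM in regression mice, against 1178 CPM in lean mice (-3.17 ± 0.39, adjusted p = 4.41e-07). Without regression replicate 2 the number of lipogenic genes called lower was 17; it was 12 among replicates 1 to 3 alone, where 1.86% of all genes were called lower, and 18 among replicates 4 to 6 alone, where 13.6% were.

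Triglyceride assembly was lower in 9 of 9 genes tested, of 11 members, with a median of -1.21, where 17.1% of all genes were lower. Dgat2, which adds the last acyl chain to diacylglycerol, was at 1500.4, 1199, 1678, 815, 479.98 and 515 CPM in regression replicates 1 to 6, against 4565, 4838, 5025, 2151, 3083 and 4461 CPM in lean replicates 1 to 6. The ranges did not meet, and Dgat2 fell by 1.96 ± 0.31 (adjusted p = 1.12e-05). Agpat2, the acyltransferase that makes phosphatidic acid and whose loss causes congenital lipodystrophy in humans, was at 122 to 264 CPM in regression mice, against 616 to 1508 CPM in lean mice, and fell by 2.50 ± 0.36 (adjusted p = 3.8e-06). Mogat2, which acylates monoacylglycerol, was at 1.11, 2.36 and 4.28 CPM in regression mice, against 16.8, 24.3 and 28.8 CPM in lean mice; the groups did not overlap (-3.23 ± 0.54, adjusted p = 1.94e-05). The count of members called lower was 9 without regression replicate 2, 4 among replicates 1 to 3 alone and 9 among replicates 4 to 6 alone.

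Cholesterol synthesis fell as broadly, in 22 of 25 genes tested with none higher, a median of -1.25 and no overlap in 15. Of all genes 17.1% were called lower, and 5.65% were lower without overlap. The summed level of the list had a lowest, median and highest value of 793, 978 and 1109 CPM in regression mice, against 2220.1, 2654 and 3747.3 CPM in lean mice, so the lowest lean mouse stood above the highest regression mouse. Insig1, which holds the SREBP proteins back in the endoplasmic reticulum and is itself an SREBP target, was at 125, 178 and 201 CPM in regression mice, against 643, 791 and 1626 CPM in lean mice (-2.44 ± 0.41, adjusted p = 2e-05), with no overlap. Lss, which closes the sterol rings, ranged over 22.7 to 28.5 CPM in regression mice, against 84.7 to 149 CPM in lean mice, and fell by 2.18 ± 0.30 (adjusted p = 2.39e-06). The number called lower was 22 without regression replicate 2, 11 among replicates 1 to 3 alone and 20 among replicates 4 to 6 alone. Of 17 members with a RefSeq promoter window, only Hmgcs1, which was not called, held the letters TCACNCCAC (searched on both strands), a motif present in 1.24% of all 32851 windows, so no promoter of this list is shown.

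Genes that store, release or export cholesterol moved the other way. Of 14 tested, 10 rose and 0 fell (median 0.69), where 18.6% of all genes were called higher. Abcg1, which passes cholesterol to high-density lipoprotein, was at 151, 198 and 244 CPM in regression mice, against 31.9, 37.4 and 54.1 CPM in lean mice (2.35 ± 0.28, adjusted p = 2.53e-07). Soat1, which esterifies cholesterol for storage, was at 32.7, 101 and 116 CPM in regression mice, against 6.44, 9.93 and 18 CPM in lean mice (2.99 ± 0.46, adjusted p = 7.64e-06). Nceh1, which hydrolyses those esters, was at 48.2, 153 and 212 CPM in regression mice, against 12.2, 17.1 and 30.0 CPM in lean mice (3.0 ± 0.50, adjusted p = 2.14e-05). None of these 3 overlapped between the groups, and in Soat1 and Nceh1 regression replicate 1 was the lowest of the regression mice. Several members of the list are also highly expressed in macrophages, whose markers moved in the same direction as described below; their part in these differences was not tested. The count was 9 without regression replicate 2, 5 among replicates 1 to 3 alone and 9 among replicates 4 to 6 alone.

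**Figure D3:**
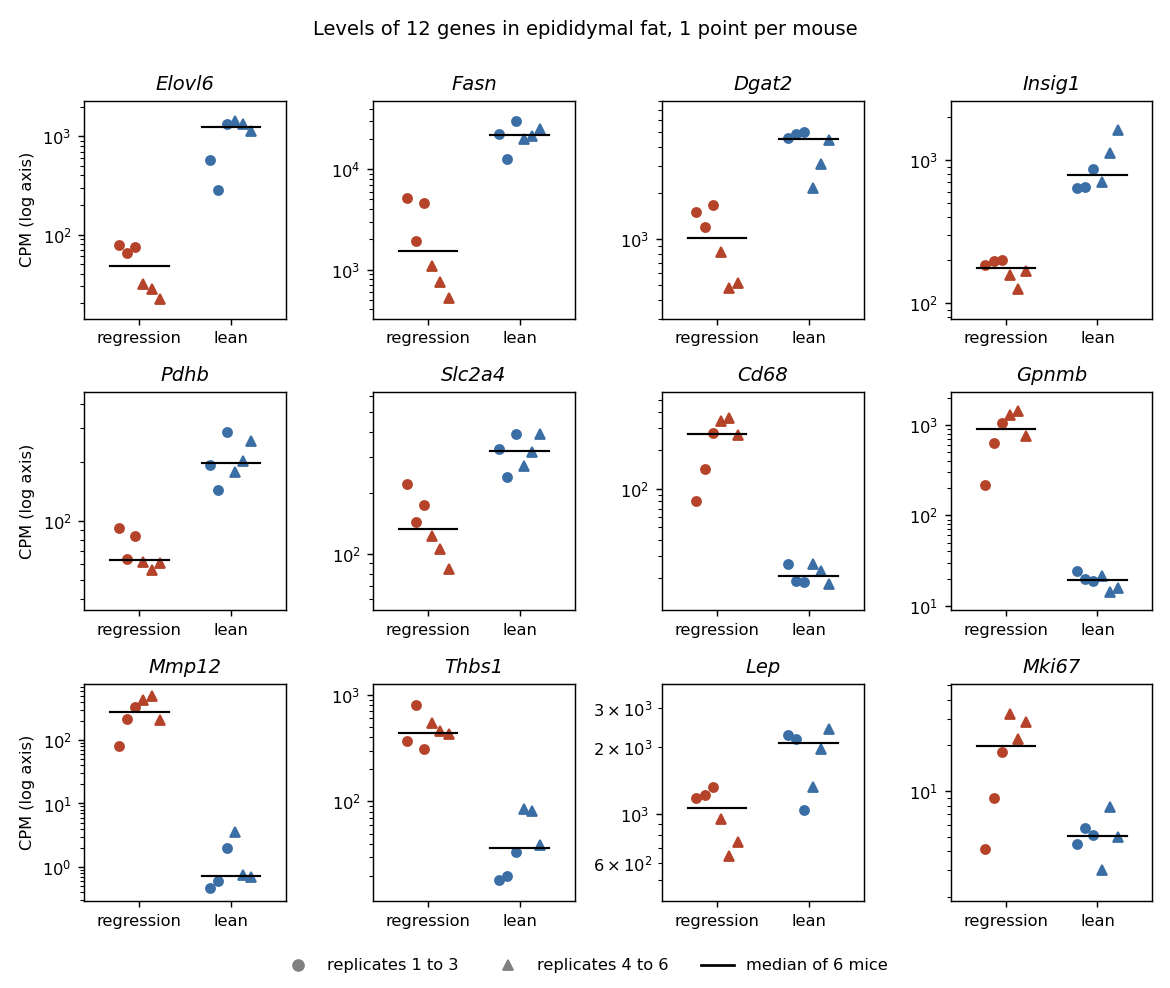
Levels of 12 genes in each of the 12 mice, in CPM on a logarithmic vertical axis, with regression mice left of lean mice in each panel, circles for replicates 1 to 3, triangles for replicates 4 to 6 and a line at the group median. Elovl6, Fasn, Dgat2, Insig1, Pdhb and Slc2a4 lie lower in all 6 regression mice than in any lean mouse, Cd68, Gpnmb, Mmp12 and Thbs1 lie higher in all 6, and Lep and Mki67 overlap between the groups.

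Genes of glucose use were lower. Of 25 genes of glycolysis and the pentose phosphate pathway, 19 fell and none rose (median -0.86), where 17.1% of all genes were lower. Slc2a4, which encodes the insulin-responsive glucose transporter GLUT4, was at 84.9, 133 and 220.2 CPM in regression mice, against 238, 322 and 391 CPM in lean mice; no regression mouse reached the lowest lean mouse (-1.18 ± 0.24, adjusted p = 0.000186). Pgd, which yields NADPH for lipid synthesis, was at 129 to 239.7 CPM in regression mice, against 498 to 729 CPM in lean mice, and fell by 1.71 ± 0.23 (adjusted p = 1.92e-06). Pcx, which carboxylates pyruvate to oxaloacetate, was at 399 to 1353 CPM in regression mice, against 1709 to 3460.1 CPM in lean mice, and fell by 1.70 ± 0.31 (adjusted p = 4.59e-05). The count was 19 without regression replicate 2; it was 5 among replicates 1 to 3 alone and 17 among replicates 4 to 6 alone.

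In mitochondria, 18 of 21 genes of the citrate cycle and pyruvate dehydrogenase fell and none rose (median -0.60), where 17.1% of all genes fell. Pdhb, a subunit of pyruvate dehydrogenase, was at 55.9, 62.9 and 91.8 CPM in regression mice, against 144, 198 and 286 CPM in lean mice (-1.59 ± 0.24, adjusted p = 5.36e-06), with no overlap. Of 26 nuclear genes of the respiratory chain, 12 fell (median -0.38), among them the complex I subunit Ndufs1 at 44.4 to 64.0 CPM in regression mice, against 74.3 to 107 CPM in lean mice (-0.70 ± 0.12, adjusted p = 2.41e-05). In the breakdown of branched-chain amino acids 13 of 20 genes fell, and the only member that rose was Bcat1, the cytosolic aminotransferase, at 12.5 to 34.0 CPM in regression mice, against 4.04 to 13 CPM in lean mice (1.54 ± 0.36, adjusted p = 0.000771). In fatty acid oxidation 8 of 21 fell, a count that was 5 without lean replicate 3, without regression replicate 4 and without regression replicate 6; Cpt1a, which admits long-chain fatty acids to mitochondria, was the only member higher (135 to 214 CPM in regression mice, against 96.0 to 161 CPM in lean mice; 0.58 ± 0.15, adjusted p = 0.00181). Peroxisome genes fell in 17 of 24 cases, with Pex11a, a factor in peroxisome division, falling by 1.05 ± 0.23 (adjusted p = 0.00051). These mitochondrial and peroxisomal counts differed between the runs of mouse numbers, as did the count over all genes. Among replicates 1 to 3 alone 1.86% of all genes were called lower. They held 2 citrate cycle genes and no respiratory chain, branched-chain or peroxisome gene. Among replicates 4 to 6 alone 13.6% of all genes were called lower, with 17, 17, 18 and 14 members of these lists in that order.

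General adipocyte genes were lower or did not pass. Adipoq, the gene of adiponectin, had 2012, 2905 and 4967 CPM in regression mice, against 2965, 4210.2 and 4692 CPM in lean mice, and its difference did not pass (-0.37 ± 0.22, adjusted p = 0.201). Its 3 lowest values were those of regression replicates 4 to 6. Pparg, the regulator of adipocyte identity, was at 104, 149 and 232 CPM in regression mice, against 217, 284 and 400.3 CPM in lean mice (-0.84 ± 0.19, adjusted p = 0.000719). Plin1, the coat protein of the adipocyte's lipid droplet, had a median of 1527 CPM in regression mice, against 2722 CPM in lean mice (-0.73 ± 0.18, adjusted p = 0.00188); both overlapped between the groups. Lpl, the lipoprotein lipase that brings in fatty acids, was at 4634, 6594 and 8291 CPM in regression mice, against 8582, 13965 and 16003 CPM in lean mice, with no overlap (-0.99 ± 0.19, adjusted p = 7.89e-05). The insulin receptor gene Insr (-0.15 ± 0.12, adjusted p = 0.343) and Irs1, its first substrate (-0.03 ± 0.21, adjusted p = 0.95), did not pass.

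Among hormones and secreted products of fat, Lep, the gene of leptin (chr6:29060220-29073877, plus strand), was lower. It stood at 1175, 1213, 1319, 947, 640.2 and 746 CPM in regression replicates 1 to 6, against 2274, 2189, 1039, 1316, 1972 and 2430.1 CPM in lean replicates 1 to 6. Lean replicates 3 and 4 lay within the range of the regression mice and the other 4 lean mice above it, and the fold change was -0.89 ± 0.27 (adjusted p = 0.00902). Retn, the gene of resistin, was at 84.7 to 268 CPM in regression mice, against 354 to 543 CPM in lean mice, and fell by 1.62 ± 0.33 (adjusted p = 0.000193). Sfrp5, a secreted inhibitor of Wnt signalling, was at 264, 378 and 452.6 CPM in regression mice, against 24.8, 70.5 and 163 CPM in lean mice, and Metrnl, the gene of meteorin-like, was at 39.6, 83.6 and 113 CPM in regression mice, against 19.1, 20.8 and 25.6 CPM in lean mice. Both rose without overlap, by 2.24 ± 0.43 (adjusted p = 0.000118) and by 1.88 ± 0.32 (adjusted p = 2.84e-05). Metrnl is also made by activated macrophages; their part was not tested.

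Of 16 genes of triglyceride breakdown and its control, 5 rose and 8 fell, where 18.6% of all genes were higher and 17.1% lower. The count lower was 5 without lean replicate 3 or without any 1 of regression replicates 4, 5 and 6. Log2 fold changes of the members ran from -0.92 to 1.32. In 3 members every regression mouse was above every lean mouse, and in 0 every regression mouse was below. Over all genes these shares were 6.99% and 5.65%. Adrb3, the main beta-adrenergic receptor of mouse adipocytes, was at 339, 864 and 1757 CPM in regression mice, against 1224, 1862 and 2378 CPM in lean mice, with overlap (-0.92 ± 0.36, adjusted p = 0.0392). The Adrb3 call was lost without lean replicate 1, 3, 5 or 6 and without regression replicate 4, 5 or 6, at -0.93 to -0.72. The lipase gene Pnpla2 did not pass (-0.52 ± 0.23, adjusted p = 0.0734). Ucp1, the uncoupling protein of brown fat, stayed near the floor at 0 to 3.05 CPM in regression mice, against 0 to 0.187 CPM in lean mice; its call (3.16 ± 1.01, adjusted p = 0.013) was lost without regression replicate 6, at 2.61, and in a limma model that took the mouse-number run as a random block.

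Macrophage genes rose together. All 19 members of a pan-macrophage list were called higher (median 2.15), where 18.6% of all genes were, and 15 did not overlap between the groups, where 6.99% of all genes were higher without overlap. Their summed level was 2146, 3735, 6714, 6055, 6083 and 5059 CPM in regression replicates 1 to 6, against 1382, 1074, 994, 1067, 1164 and 963 CPM in lean replicates 1 to 6. Regression replicate 1 was the lowest of its group and still above the highest lean mouse. Cd68, a lysosomal glycoprotein of macrophages (chr11:69664213-69666153, minus strand), was at 80.7, 268 and 357 CPM in regression mice, against 18, 20.8 and 25.8 CPM in lean mice (3.5 ± 0.55, adjusted p = 1.12e-05). Ctss, the cathepsin of antigen-presenting cells, was at 90.0, 308 and 381 CPM in regression mice, against 16.4, 22 and 25.0 CPM in lean mice (3.77 ± 0.57, adjusted p = 7.24e-06). The count was 19 without regression replicate 2 and 17 without this library and lean replicate 2 together. It was 11 among replicates 1 to 3 alone, where 2.77% of all genes were called higher, and 18 among replicates 4 to 6 alone, where 17.4% were.

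The genes that mark lipid-associated macrophages, the lipid-laden state described around dying adipocytes, held several of the largest changes of all genes. Of 18, 15 rose and 2 fell (median 2.08), where 18.6% of all genes were higher and 17.1% lower. Lpl, described above, is one of the members that fell and is made in quantity by adipocytes. The number that fell was 1 without lean replicate 3 or 5 or regression replicate 1 or 6. Mmp12, the macrophage elastase (chr9:7344381-7369499, plus strand), was at 80.2, 214, 335, 427, 488 and 210.5 CPM in regression replicates 1 to 6, against 0.456, 0.589, 2.01, 3.5, 0.754 and 0.684 CPM in lean replicates 1 to 6, a fold change of 7.80 ± 1.08 (adjusted p = 2.35e-06). The groups did not overlap, and this call was lost in a limma model with the mouse-number run as a random block. Gpnmb, a glycoprotein of lysosome-rich cells (chr6:49036546-49070929, plus strand), was at 214, 895 and 1433 CPM in regression mice, against 14.4, 19.4 and 24.5 CPM in lean mice (5.54 ± 0.85, adjusted p = 7.92e-06). Trem2, the lipid receptor that this state depends on in mice, was at 32.7, 145 and 187 CPM in regression mice, against 3.30, 4.92 and 8.13 CPM in lean mice (4.59 ± 0.75, adjusted p = 1.67e-05). Atp6v0d2, a subunit of the lysosomal proton pump, was at 32.2, 162 and 234 CPM in regression mice, against 1.18, 1.74 and 3.22 CPM in lean mice (6.25 ± 0.94, adjusted p = 6.27e-06). Itgax, the gene of CD11c, had a median of 81.4 CPM in regression mice, against 2.16 CPM in lean mice (5.02 ± 0.81, adjusted p = 1.25e-05). In all 5 the lowest regression mouse stood above the highest lean mouse.

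Genes of resident, perivascular-type macrophages moved less. Of 15, 7 rose and 1 fell (median 0.50), where 18.6% of all genes were higher and 17.1% lower. Lyve1, which marks them and lymphatic vessels, was at 42.3 to 80.6 CPM in regression mice, against 31.8 to 40.6 CPM in lean mice, and rose by 0.84 ± 0.19 (adjusted p = 0.000691). Ccl24, the chemokine eotaxin-2, was the member that fell, at 3.72, 4.97 and 7.78 CPM in regression mice, against 7.92, 11.3 and 11.8 CPM in lean mice (-0.95 ± 0.24, adjusted p = 0.00168), with no overlap. Rgs1, Il7r and Il1rn were among the genes with the largest rise overall. Rgs1, a GTPase-activating protein of leukocytes, was at 5.35, 36.3 and 62.4 CPM in regression mice, against 0, 0.114 and 0.456 CPM in lean mice (7.88 ± 1.16, adjusted p = 4.95e-06). Il7r, a subunit of the interleukin-7 receptor, was at 19.7, 68.9 and 112 CPM in regression mice, against 1.3, 1.75 and 2.41 CPM in lean mice (5.25 ± 0.74, adjusted p = 2.86e-06). Il1rn, which blocks the interleukin-1 receptor, was at 9.08 to 51.6 CPM in regression mice, against 0.471 to 3.40 CPM in lean mice (5.02 ± 0.84, adjusted p = 2.08e-05). Rgs1 was at 0 or near it in the lean libraries, so the size of its fold change rests on few lean counts, and its call was lost in the limma model with the random block.

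Lysosomal genes rose in 23 of 30 cases with none lower (median 0.76), where 18.6% of all genes rose. Ctsk, a collagen-cleaving cathepsin, was at 45.2, 128 and 181 CPM in regression mice, against 8.21, 9.82 and 14.8 CPM in lean mice (3.53 ± 0.56, adjusted p = 1.09e-05). Gla, the lysosomal alpha-galactosidase, was at 17.8, 49.6 and 62.5 CPM in regression mice, against 9.25, 11.2 and 13.3 CPM in lean mice (2.05 ± 0.36, adjusted p = 3.39e-05); neither overlapped. The count was 25 without regression replicate 2, 9 among replicates 1 to 3 alone and 23 among replicates 4 to 6 alone. The letters CACGTG, the core of the element through which the TFEB family of factors is known to act on lysosomal genes, were searched for on both strands in RefSeq promoter windows (250 bases before to 50 after the start, GRCm38.p6). They occurred in 10 of 24 members with a window, 7 of them called, against 7.15% of all windows and 11.2% of the tested genes that have a window. The window of Gla, the member with the largest fold change among those that hold the letters, is shown from chrX:134600956-134601255, minus strand, with both matches in capitals, the first beginning 227 bases before the start.
Gla: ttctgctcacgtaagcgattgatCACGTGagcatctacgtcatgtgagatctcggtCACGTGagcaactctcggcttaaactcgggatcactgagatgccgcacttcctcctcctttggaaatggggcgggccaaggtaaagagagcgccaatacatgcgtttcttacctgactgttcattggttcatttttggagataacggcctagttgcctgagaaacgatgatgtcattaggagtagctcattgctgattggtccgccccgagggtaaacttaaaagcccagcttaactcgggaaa
A match is a description of letters and was not tested for binding. The same list holds members known to be abundant in macrophages, and the pan-macrophage levels given above moved with it; their part in the lysosomal counts was not tested.

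Recruitment and immune effector genes rose with the macrophage markers. Of all genes 18.6% were called higher. Of 24 chemokines and receptors 14 rose, of 17 complement genes 14, of 18 interleukin and Tnf genes 13, and of 10 MHC class II genes 10, with none lower in any of these lists and medians of 1.33, 0.97, 0.97 and 1.2. Ccl9, a chemokine of myeloid cells, had a median of 278 CPM in regression mice, against 34.0 CPM in lean mice, and rose by 3.01 ± 0.41 (adjusted p = 1.75e-06). Ccl2, which draws monocytes into tissue, was at 6.94, 10.8 and 25.4 CPM in regression mice, against 2.05, 3.38 and 5.25 CPM in lean mice, with no overlap (1.91 ± 0.44, adjusted p = 0.000699). C3ar1, the receptor of complement fragment C3a, was at 66.6 to 347 CPM in regression mice, against 22.8 to 31.1 CPM in lean mice (3.25 ± 0.54, adjusted p = 1.92e-05). Tnf, the cytokine known to blunt insulin action in fat, stayed low at 1.13, 4.08 and 7.64 CPM in regression mice, against 0.228, 0.755 and 1.18 CPM in lean mice (2.49 ± 0.50, adjusted p = 0.000186), with overlap. H2-Aa, a chain of the MHC class II molecule, was at 167, 318 and 391 CPM in regression mice, against 92.4, 119 and 162 CPM in lean mice (1.37 ± 0.29, adjusted p = 0.000254); regression replicate 1 was the lowest of its group. Among replicates 1 to 3 alone 5 chemokine, 6 complement, 2 interleukin and 0 MHC class II genes were called higher, and among replicates 4 to 6 alone 15, 14, 11 and 9 were.

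Genes of T cells and cytotoxic cells were low in level, and their calls depended on single mice. T cell and cytotoxic genes had a median of 1.35, and 7 of 17 were called higher, but their summed level was only 17.3, 11.1, 32.4, 40.9, 40.6 and 64.7 CPM in regression replicates 1 to 6, against 16.7, 16.4, 17.4, 12.1, 13.1 and 9.52 CPM in lean replicates 1 to 6. Regression replicates 1 and 2 lay within the lean range. The count was 0 without regression replicate 6, 3 without regression replicate 4, 4 without regression replicate 5 and without lean replicate 1, 2 without lean replicate 2, 5 or 6, and 1 without lean replicate 4.

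Most matrix glycoproteins and matrix proteases rose, where 18.6% of all genes were called higher. Of 24 matrix glycoproteins and crosslinking enzymes 15 rose and 1 fell (median 0.66; the 1 that fell was not called without lean replicate 3 or 6 or regression replicate 1, 4 or 6), and of 24 proteases and inhibitors 16 rose and 1 fell (median 0.86). Thbs1, thrombospondin-1, which binds and activates latent TGF-beta (chr2:118111876-118127133, plus strand), was at 372, 797, 313, 543, 456.3 and 429.5 CPM in regression replicates 1 to 6, against 18.5, 19.9, 33.3, 84.6, 81.5 and 39.1 CPM in lean replicates 1 to 6. The groups lay far apart (3.39 ± 0.53, adjusted p = 1.09e-05). Thbs2, its relative (chr17:14665500-14694235, minus strand), was at 83.9, 108 and 133 CPM in regression mice, against 11.9, 16.5 and 21.5 CPM in lean mice, a rise of 2.75 ± 0.27 with a small spread in both groups (adjusted p = 7.97e-09). Postn, periostin, was at 105, 153 and 196 CPM in regression mice, against 28.4, 38.2 and 47.4 CPM in lean mice (2.01 ± 0.23, adjusted p = 1.13e-07). The collagen-binding proteoglycan Lum was at 117 to 322 CPM in regression mice, against 45.8 to 75.5 CPM in lean mice (1.74 ± 0.29, adjusted p = 2.3e-05).

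Of 17 collagen genes 7 rose and 3 fell (median 0.38), where 18.6% of all genes were called higher and 17.1% lower. The share that fell was thus near that of all genes. Col1a1, a chain of the fibrillar type I collagen, was at 131, 282 and 393 CPM in regression mice, against 100.4, 125 and 190.4 CPM in lean mice (0.95 ± 0.21, adjusted p = 0.000458). Col6a3, a chain of the type VI collagen that surrounds adipocytes, was at 165 to 312 CPM in regression mice, against 109.8 to 156 CPM in lean mice (0.96 ± 0.21, adjusted p = 0.000462). Col15a1, a collagen of basement membranes, fell, at 144, 211 and 256 CPM in regression mice, against 219, 478.7 and 520.2 CPM in lean mice (-1.12 ± 0.19, adjusted p = 2.65e-05); lean replicate 4, at 219 CPM, lay within the range of the regression mice, and the other 5 lean mice lay above it. Col5a3, a chain of type V collagen, was at 132 to 246 CPM in regression mice, against 272 to 506 CPM in lean mice, and fell by 1.19 ± 0.23 (adjusted p = 0.000133). Adamts5, a protease that cleaves proteoglycans, was the protease that fell, at 168, 236 and 335 CPM in regression mice, against 311, 563 and 666 CPM in lean mice (-1.13 ± 0.23, adjusted p = 0.000242). Among replicates 1 to 3 alone 1 collagen was called higher and 3 lower, and among replicates 4 to 6 alone 8 higher and 1 lower.

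Of the cells that make matrix, 7 of 18 progenitor and fibroblast genes rose and 1 fell. Pdgfra, the growth factor receptor that marks adipocyte progenitors, was at 125, 173 and 264 CPM in regression mice, against 62.5, 76.0 and 92.3 CPM in lean mice (1.28 ± 0.23, adjusted p = 4.02e-05). Of pericyte and smooth muscle genes, 4 of 12 fell and none rose, where 17.1% of all genes were lower. The number that fell was 2 without regression replicate 3 or 5 and 3 without lean replicate 2. The sum of 6 markers of these cells was highest in lean replicate 2, at 1473 CPM. This library also held the epididymis markers, and its part in these falls was not tested. Cspg4, the pericyte proteoglycan NG2, was at 58.2, 79.2 and 105 CPM in regression mice, against 149.9, 235 and 273 CPM in lean mice, with no overlap (-1.45 ± 0.21, adjusted p = 3.38e-06). Endothelial genes were called higher in 5 of 20 cases and mesothelial genes in 1 of 12, where 18.6% of all genes were.

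Chaperones of the endoplasmic reticulum rose. Of 23 genes of the unfolded protein response 13 rose and none fell (median 0.31), where 18.6% of all genes rose. The summed level had a lowest, median and highest value of 3322, 3836 and 4782 CPM in regression mice, against 2946, 3169.8 and 3269 CPM in lean mice. Every regression mouse was above every lean mouse in this sum. Sdf2l1, a chaperone partner, was at 19.2, 46.8 and 71.5 CPM in regression mice, against 11.6, 15.3 and 17.3 CPM in lean mice (1.63 ± 0.26, adjusted p = 1.11e-05). Creld2, a disulphide-handling chaperone induced by this stress, was at 9.02, 20.7 and 30.2 CPM in regression mice, against 8.01, 10.1 and 14.3 CPM in lean mice (1.01 ± 0.18, adjusted p = 3.27e-05). Manf, a secreted stress protein, had a median of 55.0 CPM in regression mice, against 33.8 CPM in lean mice (0.68 ± 0.14, adjusted p = 0.000229). Hspa5, the chaperone BiP, was at 414 to 869 CPM in regression mice, against 426 to 500.1 CPM in lean mice (0.40 ± 0.11, adjusted p = 0.00425). The last 3 overlapped between the groups. The Hspa5 call was lost with the 12 libraries alone, with these thinned to the smallest total, and among replicates 1 to 3 alone. The count was 14 without regression replicate 2, 0 among replicates 1 to 3 alone and 11 among replicates 4 to 6 alone.

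The stress-response element of these promoters is known as CCAAT, a spacer of 9 bases and CCACG, which ATF6 and NF-Y bind. On either strand, this run of letters occurred in 8 of 20 members with a RefSeq window, 6 of them called, against 39 of all 32851 windows (0.119%) and 0.166% of the tested genes that have a window. The matches of the 6 called members are shown, read 5′ to 3′ in the direction of the motif, with its fixed letters in capitals, because the spacer differs in every one.
Creld2, chr15:88819520-88819538, minus strand: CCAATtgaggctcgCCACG
Hsp90b1, chr10:86705638-86705656, minus strand: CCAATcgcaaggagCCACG
Hsp90b1, chr10:86705533-86705551, plus strand: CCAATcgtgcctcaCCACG
Calr, chr8:84847075-84847093, plus strand: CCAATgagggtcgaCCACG
Pdia6, chr12:17266491-17266509, plus strand: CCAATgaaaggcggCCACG
Hspa5, chr2:34772025-34772043, plus strand: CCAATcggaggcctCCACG
Canx, chr11:50325800-50325818, minus strand: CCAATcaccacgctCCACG
In the direction of their genes they begin 126, 212, 107, 162, 98, 65 and 145 bases before the start, in the order shown. The whole window of Creld2, the called member with the largest fold change among those that hold the motif, runs over chr15:88819396-88819695 on the plus strand, with the match, which lies on the other strand, in capitals.
Creld2: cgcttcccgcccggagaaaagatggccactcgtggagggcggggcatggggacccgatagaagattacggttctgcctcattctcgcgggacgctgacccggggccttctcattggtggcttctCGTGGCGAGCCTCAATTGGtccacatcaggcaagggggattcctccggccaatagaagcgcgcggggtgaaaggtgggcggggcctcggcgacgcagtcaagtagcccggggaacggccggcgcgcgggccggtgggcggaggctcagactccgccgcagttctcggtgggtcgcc
Calr, Pdia6 and Canx, chaperones and a disulphide isomerase of the same compartment, rose by 0.42 ± 0.10 (adjusted p = 0.00112), 0.40 ± 0.09 (adjusted p = 0.000343) and 0.31 ± 0.08 (adjusted p = 0.00196). A match does not show that a factor was bound in these mice.

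Cell division genes rose in 17 of 27 cases with none lower (median 1.06), where 18.6% of all genes rose. The levels of these cell division genes were low. Mki67, which marks dividing cells, was at 4.13, 9.02, 18, 32, 21.9 and 28.4 CPM in regression replicates 1 to 6, against 4.45, 5.66, 5.13, 2.98, 7.88 and 4.98 CPM in lean replicates 1 to 6. Regression replicate 1 lay within the lean range and replicates 2 to 6 above it (1.89 ± 0.51, adjusted p = 0.00324). Top2a, a topoisomerase of dividing cells, was at 1.46, 9.68 and 12.4 CPM in regression mice, against 1.14, 1.6 and 2.003 CPM in lean mice (2.35 ± 0.50, adjusted p = 0.000305). The calls of Mki67 and Top2a were both lost in the limma model with the random block. The count of the list was 0 among replicates 1 to 3 alone and 20 among replicates 4 to 6 alone.

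Genes of p53 and senescence moved in both directions. Of 20 tested, 5 rose and 4 fell (median 0.32), shares near the 18.6% of all genes called higher and 17.1% called lower; the count higher was 10 without regression replicate 1 and 8 without regression replicate 2. The members with the largest fall were these 3. Cdkn2c, which encodes the cell cycle inhibitor p18, was at 83.1, 134 and 155 CPM in regression mice, against 224, 437.8 and 477.4 CPM in lean mice (-1.65 ± 0.25, adjusted p = 7.1e-06). Cdkn2b, which encodes p15, was at 9.72, 12.4 and 14.4 CPM in regression mice, against 22.5, 32.1 and 35.3 CPM in lean mice (-1.31 ± 0.21, adjusted p = 1.2e-05). Bbc3, the cell death protein PUMA, was at 7.64, 17.8 and 24.4 CPM in regression mice, against 34.8, 51.0 and 64.0 CPM in lean mice (-1.53 ± 0.23, adjusted p = 6.26e-06). None of the 3 overlapped.

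Stress and hormone-response genes also differed. Of 19 immediate early genes 10 rose and none fell (median 0.44), where 18.6% of all genes rose. Atf3, a stress-induced transcription factor, was at 46.7, 141 and 159.7 CPM in regression mice, against 7.08, 8.73 and 9.22 CPM in lean mice (3.85 ± 0.66, adjusted p = 2.59e-05). Fos, a subunit of AP-1, was at 37.7, 62.2 and 68.5 CPM in regression mice, against 5.6, 10.3 and 25.6 CPM in lean mice (2.11 ± 0.51, adjusted p = 0.00112). Sgk1, a kinase induced by glucocorticoids, was at 94.3, 108 and 138 CPM in regression mice, against 26.8, 32.3 and 42.3 CPM in lean mice (1.70 ± 0.21, adjusted p = 5.76e-07). Hsd11b1, which regenerates active glucocorticoid inside the cell, was at 68.1, 88.9 and 145 CPM in regression mice, against 119.7, 317 and 457.4 CPM in lean mice (-1.71 ± 0.27, adjusted p = 1.21e-05). Ptger3, the prostaglandin E2 receptor EP3, was at 16.3, 30.0 and 81.7 CPM in regression mice, against 137, 209.7 and 245 CPM in lean mice (-2.28 ± 0.39, adjusted p = 2.81e-05). Hpgds, which makes prostaglandin D2, was at 23.8, 93.3 and 131 CPM in regression mice, against 5.79, 8.40 and 11.8 CPM in lean mice (3.34 ± 0.56, adjusted p = 2.3e-05). Serpina3n, a protease inhibitor of the acute phase, was at 196, 213 and 235 CPM in regression mice, against 389.6, 596 and 653 CPM in lean mice (-1.39 ± 0.16, adjusted p = 1.13e-07). In Hsd11b1 lean replicate 2, at 119.7 CPM, lay below regression replicate 1, at 145 CPM, and the other 6 genes did not overlap.

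The rest of the lists gave calls in both directions or in few members, and several lay near the 18.6% of all genes called higher and 17.1% called lower. Adipogenic transcription factors had 3 higher and 6 lower of 18, with Cebpa, which maintains the mature adipocyte, at 1105 to 2238 CPM in regression mice, against 1764 to 3930.5 CPM in lean mice (-1.0 ± 0.19, adjusted p = 7.08e-05). Higher and lower calls numbered 3 and 4 of 20 for insulin signalling, 5 and 4 of 16 for adipokines, 2 and 5 of 12 for lipid droplet coats, and 2 and 4 of 14 for fatty acid uptake. The lower count of insulin signalling was 2 without any 1 of lean replicates 1, 2, 3 and 6 and regression replicates 4, 5 and 6, and the higher count of fatty acid uptake was 1 without lean replicate 1, 2 or 4 or regression replicate 2 or 4. Bscl2, seipin, which shapes new lipid droplets, was at 71.1, 86.6 and 139 CPM in regression mice, against 183, 229 and 285 CPM in lean mice (-1.24 ± 0.19, adjusted p = 6.65e-06). Of thermogenic genes 1 rose, Ucp1, and 5 of 14 fell. The number higher was 0 without regression replicate 6 and 2 without lean replicate 4 or regression replicate 5, and the number lower was 3 without lean replicate 3. The ATF4 amino acid response had 6 higher and 4 lower of 20, with the cystine transporter gene Slc7a11 at 0.648 to 2.78 CPM in regression mice, against 0 to 0.514 CPM in lean mice (2.47 ± 0.81, adjusted p = 0.0156); this call was lost in the limma model with the random block, and without regression replicate 2 and lean replicate 2 together. Gdf15, a hormone of cell stress that curbs appetite, was at 2.84, 6.77 and 17.2 CPM in regression mice, against 0.373, 1.31 and 2.62 CPM in lean mice (2.54 ± 0.69, adjusted p = 0.00345).

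Antioxidant genes had 4 higher and 7 lower of 24, and iron genes 6 and 5 of 14; the lower iron count was 3 without lean replicate 5 or regression replicate 5 or 6. Hmox1, which breaks down haem and stands in both lists, was at 52.9, 98.9 and 132 CPM in regression mice, against 26.6, 31.0 and 37.0 CPM in lean mice (1.58 ± 0.28, adjusted p = 3.17e-05). TGF-beta family genes rose in 8 and fell in 1 of 23, interferon-induced genes rose in 10 of 22, and monocyte and dendritic cell genes rose in 5 and fell in 1 of 14. The TGF-beta count higher was 5 without lean replicate 3 or regression replicate 5, and the count lower ran from 0 (without lean replicate 5 or 6 or regression replicate 3, 5 or 6) to 2 (without regression replicate 1). Mast cell genes rose in 4 of 11, B and plasma cell genes in 2 of 9 and neutrophil genes in 1 of 6, where 18.6% of all genes rose. The mast cell count was 1 without lean replicate 3 or 5 or regression replicate 4 or 5, and 2 without lean replicate 4 or 6 or regression replicate 6. The B and plasma cell count was 6 without regression replicate 1, and the neutrophil count was 2 without lean replicate 4. Mitochondrial ribosome genes fell in 10 of 20. Higher and lower calls numbered 5 and 2 of 14 for glucocorticoid targets, 4 and 4 of 21 for eicosanoids, 7 and 5 of 22 for ceramide and fatty acid remodelling, 4 and 4 of 12 for the acute phase, 2 and 5 of 16 for hypoxia, 1 and 5 of 19 for the clock, 1 and 5 of 20 for autophagy, and 0 and 2 of 10 for Schwann cells. Of these, the glucocorticoid count higher was 3 without lean replicate 5 or 6, the clock count lower was 3 without lean replicate 5 or regression replicate 5, and the autophagy count lower was 3 without regression replicate 5. The single higher members of the clock and autophagy lists became 2 without regression replicate 4 or 6, for the clock also without lean replicate 4, and for autophagy also without regression replicate 2 or 3.

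Among the 8 genes with the deepest fall that passed the naming rule, 3 were the lipogenic Elovl6, Acss2 and Acly. Hephl1, a copper-dependent ferroxidase, was at 0.413, 1.29 and 4.89 CPM in regression mice, against 11.5, 24.7 and 33.3 CPM in lean mice (-3.69 ± 0.64, adjusted p = 3.06e-05). Cyp2f2, a cytochrome P450 known from the mouse lung, was at 0.733, 2.04 and 4.16 CPM in regression mice, against 7.88, 18.8 and 34.0 CPM in lean mice (-3.36 ± 0.57, adjusted p = 2.33e-05). Prrt4, a proline-rich transmembrane protein, was at 0 to 3.49 CPM in regression mice, against 16.5 to 33.2 CPM in lean mice (-3.46 ± 0.53, adjusted p = 8.31e-06). Cldn22 (-3.57 ± 0.46, adjusted p = 8.3e-07) and H2-Q10 (-3.48 ± 0.48, adjusted p = 2.11e-06) have near copies or overlap another gene, so their counts are uncertain. None of these 5 overlapped between the groups. Tm4sf19 and Vsig8 were also among the 8 with the largest rise, both with few lean counts. Tm4sf19, a tetraspanin-like membrane protein, was at 3.49 to 29.1 CPM in regression mice, against 0 to 0.514 CPM in lean mice (6.47 ± 1.16, adjusted p = 4.65e-05). Vsig8, an immunoglobulin-domain protein, was at 6.24 to 33.6 CPM in regression mice, against 0 to 1.23 CPM in lean mice (5.78 ± 0.91, adjusted p = 1.1e-05).

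The comparison with obesity asked which differences from lean mice were those of the obese state and which differed after 2 weeks of low-fat diet. The obese mice were still on the high-fat diet. Of 3346 genes called between obese and lean mice (23.4%), 1909 had a call of the same direction at 2 weeks and 1356 had none. The 2-week difference minus the obesity difference was called for 834 genes (5.82%), 299 positive (2.09%) and 535 negative (3.74%). In all 23 fits without 1 of the libraries compared, 143 genes were called positive and 308 negative. Without 2-week regression replicate 2 the difference was called for 898 genes. The most frequent pattern was 310 genes with a negative difference that were lower than lean at 2 weeks and not called in obesity. Another 149 were not called at 2 weeks and were higher than lean in obesity, and 63 were lower at 2 weeks and higher in obesity. Of the positive differences, 182 were higher than lean at 2 weeks and not called in obesity.

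Lep was in the third of these patterns. Against lean mice of its own time its log2 fold change was -0.89 ± 0.27 at 2 weeks and 2.20 ± 0.29 in obesity, a difference of -3.10 ± 0.40 (adjusted p = 7.3e-06). Trim67, a ubiquitin ligase best known from neurons, showed it too, at -1.3 at 2 weeks and 1.67 in obesity (difference -2.97 ± 0.41, adjusted p = 1.18e-05), as did Paqr9, a member of a family of membrane receptors, at -1.376 and 1.54 (difference -2.92 ± 0.45, adjusted p = 7.12e-05). Adamts5 was at -1.13 at 2 weeks and 1.14 in obesity (difference -2.27 ± 0.34, adjusted p = 4.25e-05), and Cdkn2b at -1.31 and 0.60 (difference -1.92 ± 0.30, adjusted p = 7.12e-05). Slc5a7, a choline transporter, was not called at 2 weeks (-0.22) and was higher in obesity (3.48), a difference of -3.70 ± 0.57 (adjusted p = 7.12e-05). Each of these 6 differences was called in all 23 fits.

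The lipid lists differed in how many members were already lower in obesity. De novo lipogenesis was lower in both states: 17 of 20 genes were called lower at 2 weeks and 14 in obesity (median -1.25), where 9.31% of all genes were, and 2 differences were called, those of Scd2 (-2.32 ± 0.55, adjusted p = 0.00803) and Pnpla3 (-2.67 ± 0.52, adjusted p = 0.00127). Elovl6 was at -4.37 ± 0.57 at 2 weeks and -4.16 ± 0.60 in obesity. In triglyceride synthesis 9 members were called lower at 2 weeks and 2 in obesity, and 3 differences were called. In sterol synthesis the counts were 22 at 2 weeks and 10 in obesity, with 6 differences called. Dgat2 was at -1.96 ± 0.31 at 2 weeks and 0.42 ± 0.31 in obesity, and differed by -2.38 ± 0.44 (adjusted p = 0.000679), Agpat2 by -2.08 ± 0.50 (adjusted p = 0.00815) and Mogat2 by -3.34 ± 0.71 (adjusted p = 0.00321), a call lost in the limma model with the random block. Insig1 was at -2.44 ± 0.41 at 2 weeks and -0.39 ± 0.41 in obesity, and differed by -2.05 ± 0.56 (adjusted p = 0.0216), a call lost without obese replicate 1, at -1.77, and with the random block.

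Of the 26 respiratory chain genes 12 were called lower at 2 weeks (median -0.38) and 26 in obesity (median -0.70), and 2 differences between the times were called, those of Ndufv2 and Cox6c, both positive. Macrophage genes were widely higher at both times: 19 of 19 pan-macrophage genes were called higher at 2 weeks and 18 in obesity (median 1.73). Of all genes 18.6% were called higher at 2 weeks and 14.1% in obesity. No difference was called in the pan-macrophage list. Of 18 lipid-associated macrophage genes 15 were called higher at 2 weeks (median 2.08) and 9 in obesity (median 1.07). In that list 2 differences were called, both positive: Ctsl, a lysosomal cathepsin, at 0.86 ± 0.23 (adjusted p = 0.0191), and Cd63, a tetraspanin of late endosomes, at 0.79 ± 0.21 (adjusted p = 0.0191). These 2 genes are named because they were the ones called, so they were chosen after their values were seen. The Cd63 call was lost without obese replicate 5, at 0.725, and both calls were lost with the compared groups alone and without 2-week regression replicate 2 and lean replicate 2 together. Cd68 was at 3.5 ± 0.55 at 2 weeks and 2.89 ± 0.55 in obesity, and the difference of 0.61 ± 0.74 did not pass (adjusted p = 0.742). Of 17 collagens 7 were higher and 3 lower at 2 weeks, and 13 were higher and none lower in obesity; 6 of the differences were called, all negative. Col15a1 was at -1.12 at 2 weeks and 0.37 in obesity (difference -1.48 ± 0.27, adjusted p = 0.00074). Col5a1, a fibril-initiating collagen, was at -0.01 and 1.13 (difference -1.15 ± 0.24, adjusted p = 0.00264).

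Some genes rose at 2 weeks beyond their state in obesity. Thbs2 was at 2.75 ± 0.27 at 2 weeks and 1.11 ± 0.27 in obesity (difference 1.64 ± 0.37, adjusted p = 0.0055). Sgk1 was at 1.70 and 0.33 (difference 1.37 ± 0.30, adjusted p = 0.00376). Kiss1r, the kisspeptin receptor, was at 1.66 and -0.25 (difference 1.91 ± 0.35, adjusted p = 0.000721). Creld2 differed by 0.98 ± 0.25 (adjusted p = 0.015) and Hsp90b1, the chaperone GRP94, by 0.57 ± 0.14 (adjusted p = 0.0126), after a 2-week rise of 0.53 ± 0.10 (adjusted p = 6.97e-05). Thbs1 differed by 2.45 ± 0.72 (adjusted p = 0.0338), but its call was lost in 9 of the 23 fits without 1 library, at 2.01 to 2.41: those without 2-week lean replicate 1, 2, 3 or 6, obesity-time lean replicate 1 or 2, obese replicate 4 or 5, or 2-week regression replicate 2. It was also lost with the random block. Net1, an exchange factor of small GTPases, was not called at 2 weeks (0.50) and was lower in obesity (-1.63), a difference of 2.14 ± 0.43 (adjusted p = 0.00174). Hsd11b1 was lower at both times, at -1.71 and -3.14, and the difference was called (1.44 ± 0.39, adjusted p = 0.02).

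**Figure D4:**
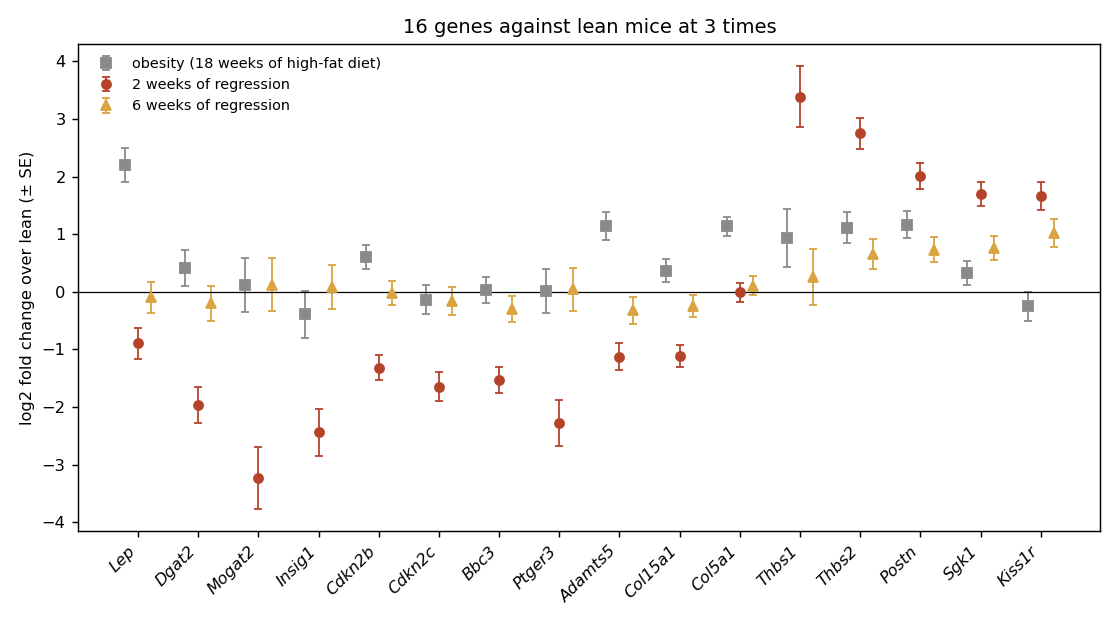
The log2 fold change against lean mice of the same time, with its standard error, for 16 genes along the horizontal axis, after 18 weeks of high-fat diet (obesity, grey squares), and after 2 weeks (red circles) and 6 weeks (ochre triangles) of low-fat diet, side by side in that order for each gene. Lep, Adamts5, Col15a1, Col5a1 and Cdkn2b stand above their 2-week values in obesity, Thbs1, Thbs2, Sgk1 and Kiss1r stand highest at 2 weeks, and Dgat2, Mogat2, Insig1 and Ptger3 are lowest at 2 weeks.

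By 6 weeks fewer genes differed from lean mice, 1086 (7.58%), of which 796 were higher (5.56%) and 290 lower (2.02%). The 2-week difference minus the 6-week difference was called for 114 genes (0.796%), 29 positive (0.202%) and 85 negative (0.593%). All 85 negative ones were lower than lean at 2 weeks and not called at 6 weeks, and 26 of the 29 positive ones were higher at 2 weeks and not called at 6 weeks. This count depended on single mice, and 23 genes were called in all 24 fits without 1 library. It was higher without 6-week regression replicate 6 (450), 2-week regression replicate 1 (360) or 3 (233), or 2-week lean replicate 4 (306). It was lower without 6-week regression replicate 1 (58), 3 (45) or 4 (24), 2-week regression replicate 4 (60), 5 (33) or 6 (44), 2-week lean replicate 1 (61) or 3 (37), or 6-week lean replicate 2 (73) or 3 (61). Without 2-week regression replicate 2 it was 116. Lipogenic genes made up part of it, with 7 of 20 negative. Elovl6 was at -4.37 ± 0.57 at 2 weeks and -0.61 ± 0.49 at 6 weeks (difference -3.76 ± 0.72, adjusted p = 0.00778), Acss2 at -3.81 and -0.38 (difference -3.43 ± 0.65, adjusted p = 0.00778), Scd2 at -3.25 and -0.36 (difference -2.89 ± 0.55, adjusted p = 0.00778) and Mogat2 at -3.23 and 0.13 (difference -3.35 ± 0.70, adjusted p = 0.0157). Sorl1, a sorting receptor, was at -2.60 and -0.28 (difference -2.33 ± 0.49, adjusted p = 0.0158). These 5 were called in all 24 fits, and their calls were lost in the limma model with the mouse-number run as a random block.

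Of the genes named here, 4 kept a called 6-week difference in that model. Thbs2 was at 2.75 ± 0.27 at 2 weeks and 0.65 ± 0.26 at 6 weeks (difference 2.10 ± 0.36, adjusted p = 0.00778), Serpina3n at -1.39 and -0.24 (difference -1.15 ± 0.22, adjusted p = 0.00778), Btc, the EGF receptor ligand betacellulin, at 1.28 and -0.25 (difference 1.53 ± 0.31, adjusted p = 0.0133) and Arpc3, a subunit of the Arp2/3 complex of the actin skeleton, at 0.73 and 0.04 (difference 0.69 ± 0.13, adjusted p = 0.00778). At 2 weeks Btc was at 18.9, 20 and 28.8 CPM in regression mice, against 6.24, 8.87 and 11.2 CPM in lean mice. Arpc3 was at 24.3, 29.2 and 38.9 CPM in regression mice, against 16.6, 18.3 and 20.2 CPM in lean mice, and neither gene overlapped between the groups. No pan-macrophage gene had a called difference between 2 and 6 weeks: 16 of 19 pan-macrophage genes were still called higher at 6 weeks (median 1.62), and Cd68 was at 3.5 ± 0.55 at 2 weeks and 2.93 ± 0.55 at 6 weeks (6-week adjusted p = 0.00238).

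The regression mice varied among themselves, in part by run of mouse numbers. Deviations of log2 CPM from the group mean correlated at 0.216 on average between regression mice of the same run. Between those of different runs the average was -0.401. Deviations from a shared mean lean to negative correlations by construction, so these are given as a description. By rank correlation of counts, regression replicate 3 was about as close to replicate 4 of the other run (0.976) as to replicate 1 (0.978). Its pan-macrophage sum, 6714 CPM, was the highest of the 6 regression mice. The summed level of de novo lipogenesis was 88461, 55889, 62706, 19378, 17506 and 20921 CPM in regression replicates 1 to 6, against 147172, 127136, 219542, 154592, 199741 and 192984 CPM in lean replicates 1 to 6. Replicates 4 to 6 of the regression group were the lowest, and all 6 regression mice stood below all 6 lean mice. Scd1, whose levels are given above, weighs heavily in this sum. The mean log2 of CPM plus 1 over the list weighs all members alike. It was 7.72, 7.18, 7.61, 6.78, 6.83 and 6.64 in regression replicates 1 to 6, against 9.28, 8.92, 9.53, 9.28, 9.22 and 9.47 in lean replicates 1 to 6. The citrate cycle sum was 4505, 3155, 3673, 2823, 2651 and 2499.9 CPM in regression replicates 1 to 6, against 6481, 5382, 8879, 5873, 6707 and 7334 CPM in lean replicates 1 to 6, with the same 3 regression mice lowest. The cell division sum was 114, 157, 208, 278, 234 and 269 CPM in regression replicates 1 to 6, against 115, 113, 106, 105, 115 and 104 CPM in lean replicates 1 to 6. Regression replicate 1 lay within the lean range and replicates 4 to 6 were the highest. What set the runs apart (birth, cage, day of tissue collection or library batch) was not tested, and the sources used here do not give it.

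**Figure D5:**
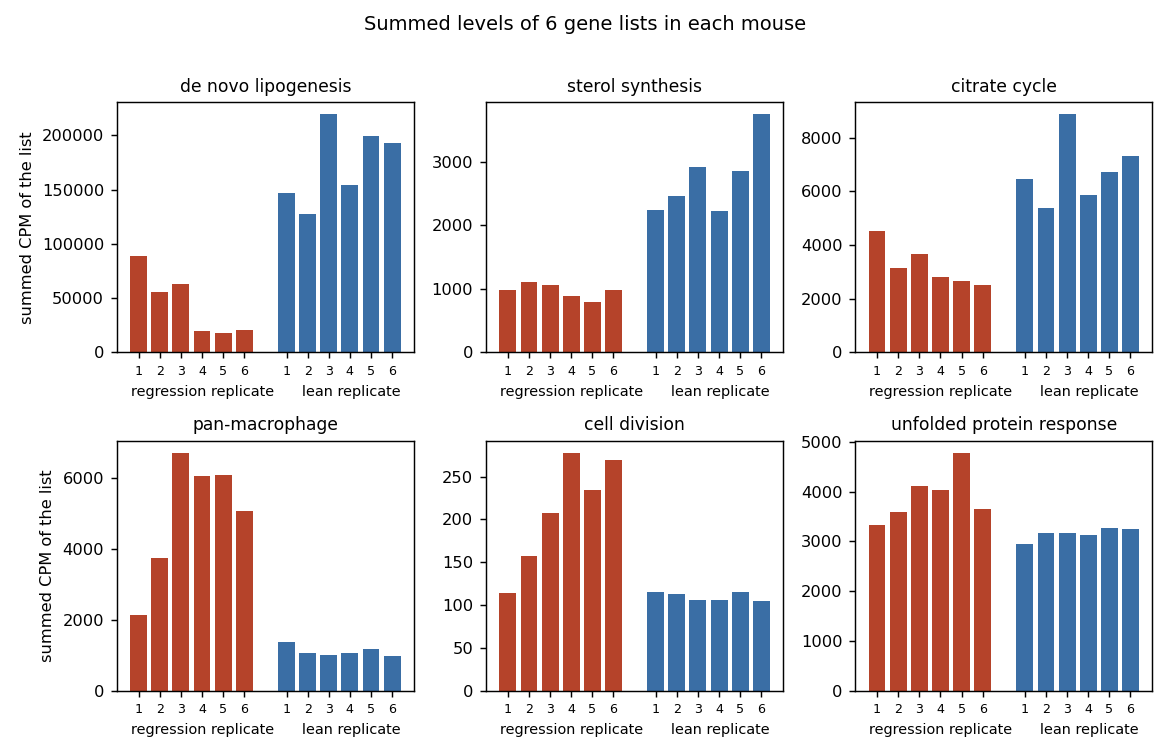
Summed CPM of 6 gene lists in each mouse, as bars from 0, with regression replicates 1 to 6 left of lean replicates 1 to 6 in every panel. Bars of de novo lipogenesis, sterol synthesis and the citrate cycle are lower in every regression mouse than in any lean mouse, those of the pan-macrophage list and the unfolded protein response are higher, and those of cell division are highest in regression replicates 4 to 6.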

How the data were processed

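Poly(A) RNA of eWAT was sequenced in paired ends by Illumina NovaSeq, per the labels' protocols. STAR 2.4.1c, the mouse build mm10, R 4.2.2 and DESeq2 1.38.3 are named in the submitters' processing notes; the sources used here do not give the counting program, its gene set or its use of strand, so overlapping and near-identical genes are uncertain. The authors deposited raw counts per gene, from which every result here was computed. Their deposited table of the 2-week comparison, with log2 fold changes, p-values, a mean signal and a test score, was used only for the shared calls.

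Counts were filtered with filterByExpr, scaled by TMM and fitted in edgeR 4.0.16 (R 4.3.3) with a quasi-likelihood model of all 47 eWAT libraries in 8 groups, without a block; p-values are two-sided with Benjamini-Hochberg adjustment over 14323 genes, the standard error is the log2 fold change divided by the root of F, and an adjusted p under 0.05 is called. CPM use TMM library sizes. The fit was tested on simulated counts. Alternatives used DESeq2 1.42.0 and limma 3.58.1. No 2 libraries agreed within sampling noise (chi-square per degree of freedom at least 7.21), so each counts once. Gene positions are of mm10 (GENCODE M21) and promoters of GRCm38.p6 (RefSeq).

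The groups, the 59 gene lists (1018 genes, 963 tested, 541 called) and the genes named were chosen with earlier results of these data known. The naming rule took a panel of markers, the 8 largest rises and falls called in all 12 fits without 1 library, the largest called members of each list and the largest differences from obesity and 6 weeks. Not every gene it takes is described, and some genes described outside it were chosen after their values were seen. Lists of the epididymis, efferent duct cilia, muscle and red cells served to check the dissection only. A few genes are not reported here, though they stay in the counts of their lists. The other fat depot of the series was not used here.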

Additional observations from a re-analysis of the deposited data

Results flagged for a closer look

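In 18 cases among the genes named, 1 mouse stood apart from the other 5 of its group, with a gap to its nearest neighbour that was large for the group's range (Dixon's test at the 95% level). Chance alone does this in about 1 in 20 groups, and 2 groups were examined for each of 111 genes. A number of such cases is thus to be looked for by chance. Genes can vary together in 1 mouse, so the cases do not count separately. Regression replicate 1 was the low one in 12 cases, all of genes that were higher in regression mice: Ctss at 90.0 CPM, Ctsl at 339.7 CPM, C3ar1 at 66.6 CPM, Itgax at 25.6 CPM, H2-Aa at 167 CPM, Il1rn at 9.08 CPM, Rgs1 at 5.35 CPM, Vsig8 at 6.24 CPM, Soat1 at 32.7 CPM, Nceh1 at 48.2 CPM, Gla at 17.8 CPM and Fos at 37.7 CPM. The Ctsl value lay below those of lean replicates 4 and 5, at 355 and 409 CPM, and the other 11 values were above those of every lean mouse. Bbc3 was lowest in regression replicate 2, the shallow library, at 7.64 CPM, and Btc was highest in regression replicate 6, at 28.8 CPM. Among lean mice, replicate 4 was lowest for Col15a1, at 219 CPM, and for Ptger3, at 137 CPM, and highest for Il1rn, at 3.40 CPM; replicate 2 was lowest for Hsd11b1, at 119.7 CPM.

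The difference from lean mice itself differed between 2 weeks and obesity for 33 of the named genes, by edgeR's quasi-likelihood test of the interaction, and 26 of these were called in every fit without 1 library. With the mouse-number run as a random block in limma 7 lost their call: Btc, Cspg4, Insig1, Mogat2, Pgd, Prrt4 and Thbs1. Beside those given above, the 2-week value minus the obesity value was -2.29 for Ptger3 (adjusted p = 0.00778), -1.56 for Bbc3 (0.00264), -1.51 for Cdkn2c (0.00685), -0.99 for Serpina3n (0.00471) and 0.74 for Arpc3 (0.000679). For Pgd it was -1.16 (0.0273), not called without 2-week lean replicate 3, obese replicate 1 or obese replicate 5, at -1.09 to -1.06, and for Prrt4 -2.44 (0.0298), not called without obese replicate 5 or 2-week regression replicate 4 or 5, at -2.31 to -1.63. For Cspg4 (-0.99, 0.0382) and Btc (1.02, 0.0441) the call was lost in 13 and 12 of the 23 such fits. The values already given were -3.10 for Lep, -2.97 for Trim67, -2.92 for Paqr9, -3.70 for Slc5a7, -2.27 for Adamts5, -1.92 for Cdkn2b, -1.48 for Col15a1, -1.15 for Col5a1, -2.32 for Scd2, -2.67 for Pnpla3, -2.38 for Dgat2, -2.08 for Agpat2, -3.34 for Mogat2, -2.05 for Insig1, 2.45 for Thbs1, 1.64 for Thbs2, 1.37 for Sgk1, 1.91 for Kiss1r, 0.98 for Creld2, 0.57 for Hsp90b1, 2.14 for Net1, 1.44 for Hsd11b1, 0.86 for Ctsl and 0.79 for Cd63.

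Between 2 and 6 weeks the difference from lean mice differed for 27 of the named genes, 10 of them in every fit without 1 library. Pgd was among these 10, at -1.54 (adjusted p = 0.0157), with Elovl6 (-3.76), Acss2 (-3.43), Scd2 (-2.89), Mogat2 (-3.35), Sorl1 (-2.33), Thbs2 (2.10), Serpina3n (-1.15), Btc (1.53) and Arpc3 (0.69). Calls lost without 1 or 2 of the libraries were those of Acly (-2.93; without 6-week regression replicate 4, -2.81), Pnpla3 (-2.33; without the same mouse, -2.14), Insig1 (-2.53; without 2-week regression replicate 5, -2.43), Agpat2 (-2.24) and Cdkn2b (-1.3; both without either of these mice, -2.13 to -2.08 and -1.25 to -1.20), and Thbs1 (3.13; without 2-week lean replicate 3 or 6-week regression replicate 4, 2.99 to 3.05). Calls lost in 5 to 19 of the 24 fits were those of Ptger3 (-2.32), Cdkn2c (-1.49), Cspg4 (-1.27), Hephl1 (-3.55), Cldn22 (-2.53), Lss (-1.75), Fasn (-2.79), Hsp90b1 (0.57), Postn (1.28), Dgat2 (-1.76) and Bbc3 (-1.24).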

How the results depend on the processing

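The count of 5111 genes at 2 weeks stayed within 1.5 times under DESeq2 (5369), DESeq2 size factors (5128), no count filter (4917), the 12 libraries alone (3811), limma with library weights (7309), the mouse-number run as a term (5202) or a random block (4303), replicates 4 to 6 alone (4234) and each left-out library (4474 to 5450). It was 2503 when all 12 libraries were thinned to the smallest total, and 605 among replicates 1 to 3 alone. Among these replicates 138 of 901 list members tested were called, against 541 of 963 with all mice (497 to 587 called with 1 library left out). The thinned libraries hold fewer counts by construction. Replicates 1 to 3 alone have 3 mice a group, as replicates 4 to 6 alone do, and include the shallow regression replicate 2. Why the 2 runs differed in their counts was not tested. Among the named genes called at 2 weeks, 40 lost their call among replicates 1 to 3 alone, 3 among replicates 4 to 6 alone (Col15a1, Creld2 and Trim67) and 6 with the run as a random block (Mmp12, Rgs1, Mki67, Top2a, Slc7a11 and Ucp1). With the 12 libraries alone 2 named genes lost their call (Adrb3 and Hspa5), and with these libraries thinned 4 did (also Canx and Ccl24). None of these changed sign. The 834 differences from obesity (577 to 1103 with 1 library left out) became 488 with the compared groups alone, 488 with the random block and 1635 with library weights; the difference from 6 weeks was called for 0.796% of genes (0.168% to 3.14% with 1 library left out), against 2.22% of 20411 genes with DESeq2, 13.2% with library weights, 2.38% with the run as a term, 0.0698% with the random block and, in an alternative chosen after seeing the data, 0.525% without regression replicate 2 and lean replicate 2 together. The cause was not tested. The sources used here do not say that replicate numbers pair the mice. Deviations of same-numbered mice correlated at -0.384 to 0.328. Without a reference for unpaired mice, these values cannot show whether the numbers pair them. The fit with a replicate block called 5153 genes at 2 weeks with 541 list members, 809 differences from obesity and 1.47% of genes for the difference from 6 weeks, and 1 of the named differences from obesity lost its call. Depth limits genes of few counts: regression replicate 2 showed a count for 12778 genes, against 15284 to 16082 in the other libraries.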
